A study of Rattus norvegicus with 6 samples.

Results

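The cytosolic ribosomal proteins were followed in wild-type and miR-203 knockout RUCA-I cells, a cancer line from the endometrium of the Lewis rat. Members were taken by symbol: a row of the authors' gene table counted when its status was OK and its gene name had the form of a small subunit (Rps), large subunit (Rpl) or stalk (Rplp) protein, and the longest locus was used where a symbol had several rows. This gave 63 genes of 26459 tested rows, 21 of the small and 42 of the large subunit. The rule used no FPKM, fold or p value, but the OK status depends on the reads of a row. The wild-type (WT) group holds 3 batches of the parental cells and the knockout (KO) group 3 separately made lines of genotype miR-203 -/-. All were untreated and grown to near confluence in serum-containing medium, and total RNA went into stranded libraries. The table gives 1 pooled FPKM value (fragments scaled to transcript length and to library size) per group, so no value below has an SD, the read depth is unknown, and the spread between batches or lines enters only through the p and q values of the authors' Cuffdiff run. Those values set the difference between the groups against the spread between these samples. The spread is between batches of the parental cells in WT and between separately made lines in KO. Genotype and the making of lines therefore go together in this design. miR-203 itself was not analysed here.

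Each ribosome holds 1 copy of nearly every ribosomal protein, set on ribosomal RNA that is transcribed in the nucleolus, so the cell has to make these proteins in matching amounts. The small subunit reads the mRNA and the large subunit joins the amino acids. Their mRNAs are among the most abundant in growing cells, and many of them begin with a terminal oligopyrimidine (TOP) tract, a stretch of C and U at the first base through which mTOR and the RNA-binding protein LARP1 set how much of the mRNA is translated. Most ribosomal protein genes have left many intronless copies across mammalian genomes.

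The mature strand of the microRNA that the study deleted is printed first, from RefSeq with build GRCr8 (chr6:137020756-137020777, plus strand), with its seed (bases 2 to 8) in capitals. The sequences after it show the start of transcription, since the TOP tract is what the members' mRNAs are known for. They run from 15 bases before to 15 bases after the start that RefSeq lists (GRCr8, 30 bases, 5′ to 3′ on the strand of the gene), and capitals mark the longest run of C or T where it reaches 8 bases. A run may lie on either side of the listed start, so it need not be a TOP tract. In Rpl5 and Rpl23 it ends before the listed start. Rplp0 lies at chr12:46718376-46718405 (minus), Rps15 at chr7:10068101-10068130 (minus), Rpl41 at chr7:1563483-1563512 (minus) and Rpl3 at chr7:113507976-113508005 (minus). These are members of the highest level. Rps27 (chr2:177964592-177964621, minus) stands beside its duplicate Rps27l (chr8:76443643-76443672, plus), and Rpl22 (chr5:168117946-168117975, plus) beside Rpl22l1 (chr2:113683181-113683210, plus). Rpl5 (chr14:1995211-1995240, minus) and Rpl23 (chr10:83272170-83272199, minus) are proteins that can bind Mdm2.
rno-miR-203a-3p: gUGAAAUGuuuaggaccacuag
Rplp0: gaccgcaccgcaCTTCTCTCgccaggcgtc
Rps15: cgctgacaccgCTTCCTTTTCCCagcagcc
Rpl41: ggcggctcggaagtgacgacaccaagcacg
Rpl3: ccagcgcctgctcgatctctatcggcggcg
Rps27: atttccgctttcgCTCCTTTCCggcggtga
Rps27l: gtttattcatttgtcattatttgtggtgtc
Rpl22: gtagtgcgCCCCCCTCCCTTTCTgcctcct
Rpl22l1: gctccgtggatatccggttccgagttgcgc
Rpl5: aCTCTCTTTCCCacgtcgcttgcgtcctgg
Rpl23: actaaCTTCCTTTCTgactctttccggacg

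Of the 63 members, 49 matched a RefSeq promoter. A run of at least 8 pyrimidines was found around the start in 31 of these 49 (63.3%), against 11.4% of all 33469 listed starts and 11.0% of 21595 starts of protein-coding genes not named for a ribosomal protein. All 31 were proteins of the standard ribosome: 11 of 13 of the small and 20 of 30 of the large subunit had the run, and 0 of 6 matched duplicates had it. Rps27 and Rpl22 have runs of 9 and 15 bases, whereas the longest runs of Rps27l and Rpl22l1 are 3 and 4 bases. Rpl41 and Rpl3, both at a high level in these cells, had runs of 3 and 5 bases only at the listed start. All these counts hold for listed starts, which were not checked against the 5′ ends of the mRNAs in these cells. In a duplicate or a standard member, lack of a run there does not show that the mRNA has no TOP tract. Whether duplicates and standard members differ in their TOP tracts was therefore not tested. Levels here are those of rows, which need not hold all mRNA of a protein, so whether the run goes with mRNA level was not tested. The standard members with a run had a median of 53.2 FPKM in WT cells (n = 31 genes, 1.69 to 729), and those without had 41.2 FPKM (n = 12 genes, 0.584 to 574). Their median log2 KO/WT ratios were -0.02 and -0.01. Those with a run include Rps13 and Rpl35a, whose rows do not lie beside the neighbours of the RefSeq gene. For them the sequence and the level need not be of the same locus.

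**Figure D1:**
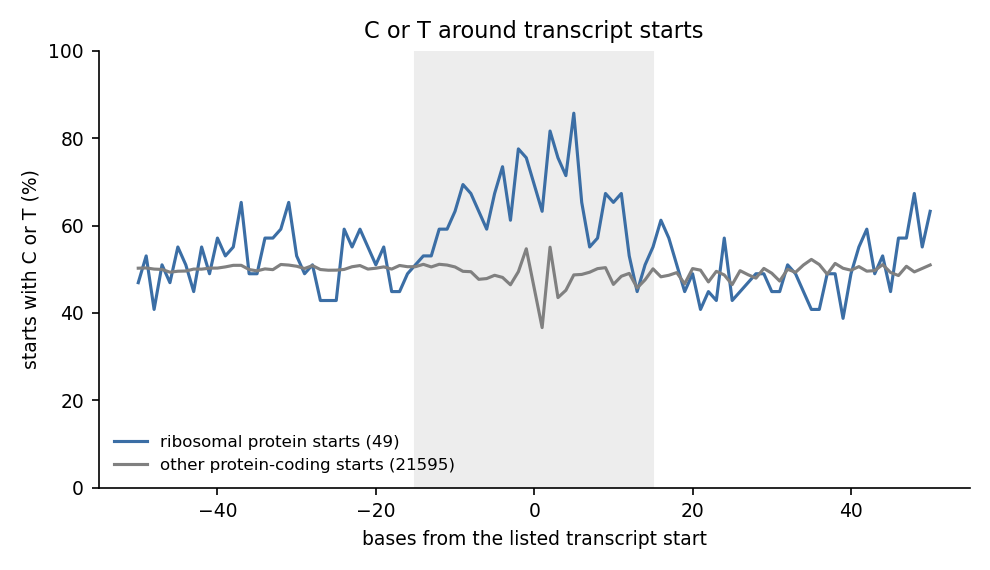
Percent of listed transcription starts with C or T at each position from 50 bases before to 50 after the start (x axis, in bases). Lines are for 49 ribosomal protein members, with 1 start each, and for 21595 starts of 18752 other protein-coding genes. The members reach 85.7% at position 5, against 48.7% of the other starts, and from 50 to 16 bases before the start the lines average 51.9% and 50.2%. Grey shading marks the bases from 15 before to 15 after the start.

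The pyrimidine excess was local. Over the bases from 15 before to 15 after the start, C or T made up 63.7% of the members' bases and 48.7% of those at other protein-coding starts. From 50 to 16 bases before the start the shares were 51.9% and 50.2%. In the whole 300-base promoters (250 before, 50 after), the letters CCGGAA on either strand, the core to which ETS factors bind, were present in 21 of 49 members (42.9%) and in 17.6% of other protein-coding starts (14.95% of all). CACGTG, the E-box of Myc and related factors, the same on both strands, was present in 3 of 49 (6.12% against 7.07%, and 6.42% of all), and TATAAA on either strand in 7 of 49 (14.3% against 13.0%, and 14.2% of all). None of the 3 motifs contains another, and a match is a description of the letters, not of a bound site.

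None of the 63 ribosomal protein genes passed the authors' test between KO and WT cells. By q under 0.05 in the authors' deposited table, 0 of 63 were called, where 1.05% of all tested rows were (277 of 26459), 0.491% as higher and 0.556% as lower in KO cells. At an unadjusted p under 0.05, 2 members stood in the authors' deposited table (3.17%), against 6.0% of all tested rows. Both have a mean above 10 FPKM, where 4.26% of members and 7.5% of all rows had such a p in the authors' deposited table. No other tool could be run on pooled values. The median log2 KO/WT ratio, taken as log2((KO + 1)/(WT + 1)), was -0.03, with quartiles of -0.09 and 0.03 and a range from -0.45 to 0.27. Of the members, 20 had the higher value in KO and 43 in WT cells, also after centring on the median of all rows. Scaling both columns to the same total FPKM gave 4 and 59, but it also moved the median of all rows by -0.14.

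**Figure D2:**
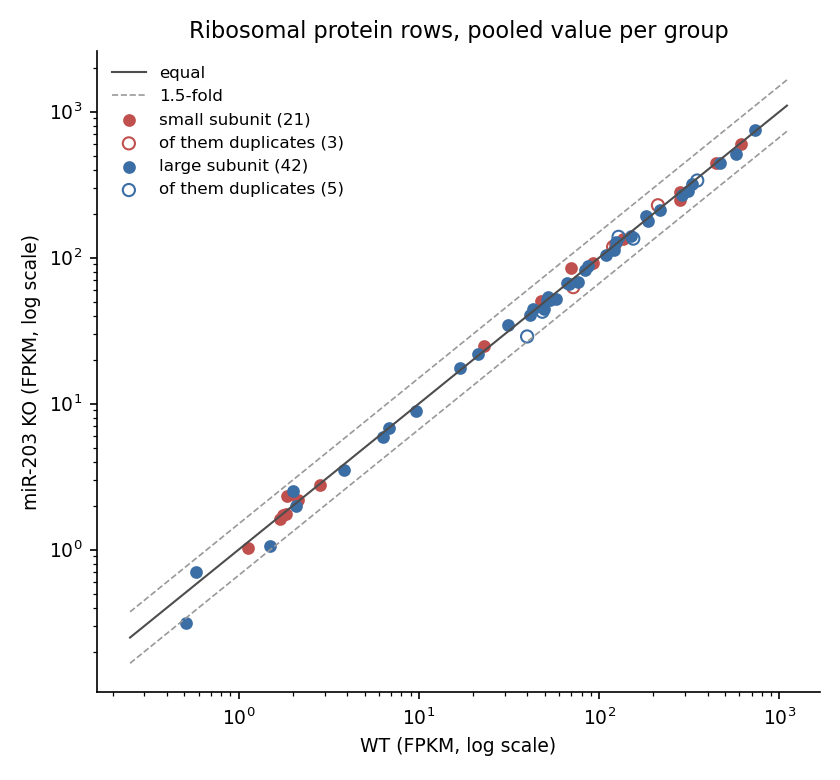
Pooled FPKM of each of the 63 members in WT cells (x axis, log scale) and miR-203 KO cells (y axis, log scale), coloured by subunit, with duplicates as open symbols and dashed lines at 1.5-fold. The points run along the line of equal values from 0.510 to 729 FPKM in WT cells.

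The small spread can be set beside that of the whole table. Where the mean of both groups reached 10 FPKM, 36 of 47 members (76.6%) lay within 1.1-fold between the groups, where 64.1% of all 8436 such rows did. Within 1.2-fold lay 45 of 47 members (95.7%, against 85.9%), and within 1.5-fold all 47 (100%, against 96.7%). The exceptions beyond 1.2-fold were Rpl22l2 and Rps29, which are also the 2 members with p under 0.05. The interquartile range of the log2 ratio was 0.13 for these members and 0.19 for all such rows, and 34.04% of the members and 46.0% of the rows were higher in KO cells.

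The subunits were close to each other. In the small subunit 7 members were higher in KO and 14 in WT cells, with a median log2 ratio of -0.01, and in the large subunit 13 and 29, with a median of -0.04. The difference of the medians, small minus large, was 0.03 and kept its sign in 13 of 13 other ways of computing it, all from the same pooled values. Centring on the median of all rows is among these ways and cannot change the difference. The difference was not tested, since the genes of a subunit are not replicates. The small subunit members were also nearer to one another: their interquartile range was 0.06, and that of the large subunit members 0.14. Summed over members, FPKM went from 2574 in WT to 2554 in KO cells for the small subunit (KO/WT 0.992) and from 5345 to 5146 for the large subunit (0.963). For the 13 members whose mean reached 200 FPKM, the medians were -0.00 in the 5 of the small and -0.07 in the 8 of the large subunit.

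**Figure D3:**
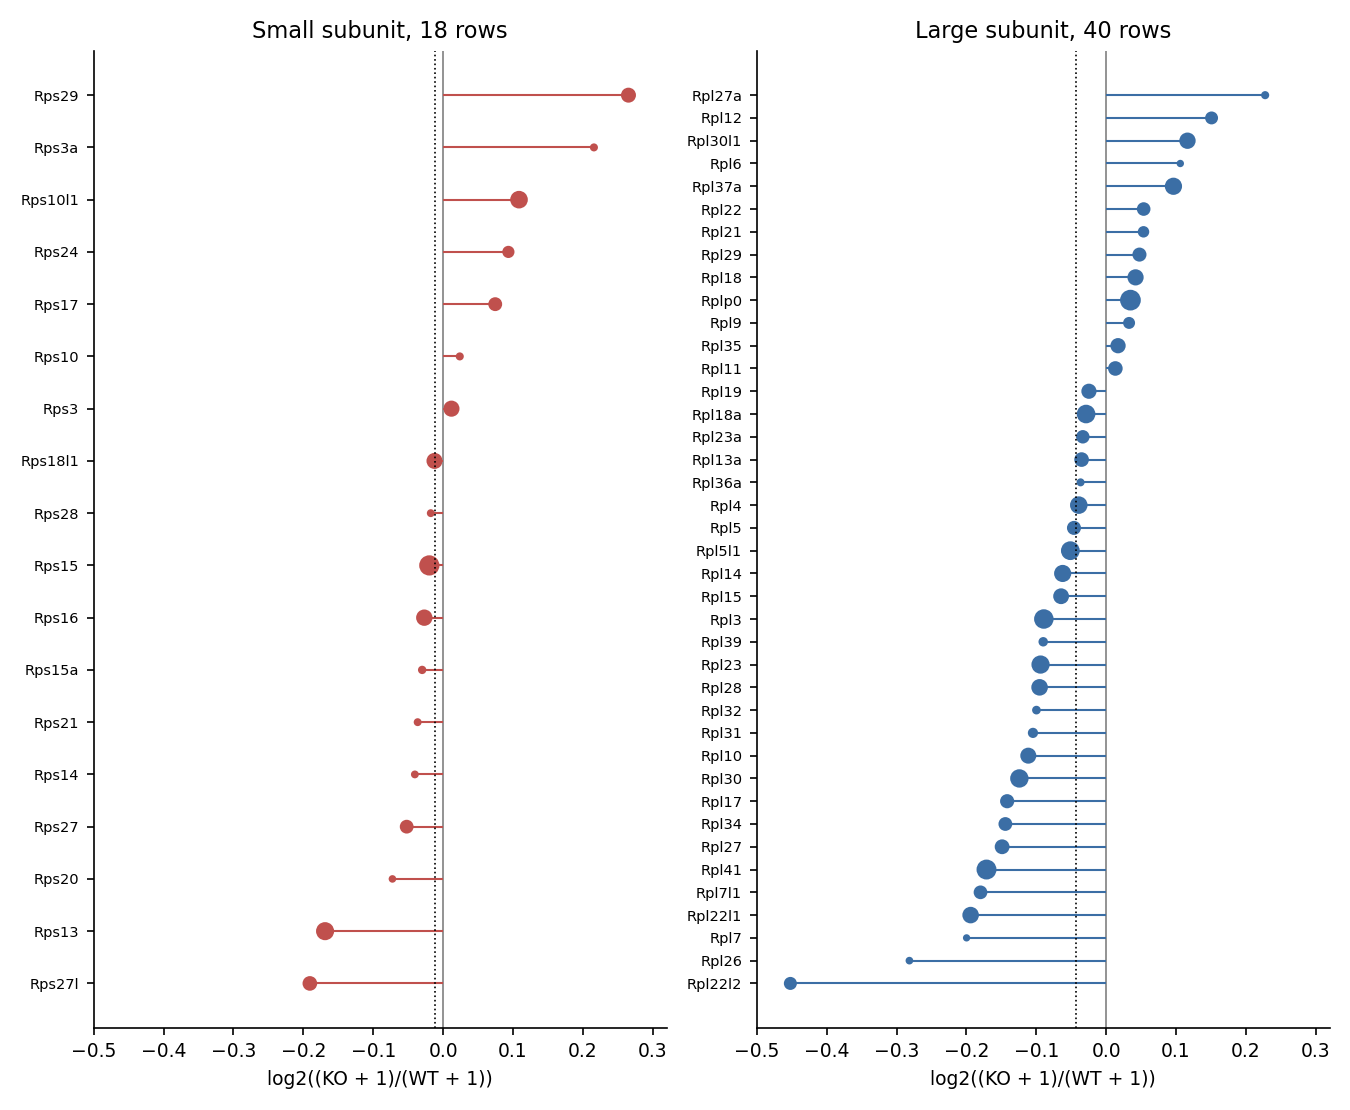
Log2((KO + 1)/(WT + 1)) of pooled FPKM (x axis) for the 18 small and 40 large subunit members whose ratio differs from 0 by at least 0.01 (y axis), with a dotted line at the median of all members of the subunit and larger points for a higher mean FPKM. The members lie between -0.45 (Rpl22l2) and 0.27 (Rps29), with medians of -0.01 for the small and -0.04 for the large subunit.

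In level the members covered about 3 orders of magnitude, with a median of 65.9 FPKM in WT cells (0.510 to 729). The median was 70.2 FPKM for the small and 61.9 FPKM for the large subunit, and 47.8 and 57.9 FPKM when the duplicates were left out. Rplp0, the base of the stalk that recruits elongation factors, had the highest level, with 729 FPKM in WT and 747 FPKM in KO cells. Rps15, a protein of the small subunit head, had 612 and 603 FPKM. The very short and basic Rpl41 had 574 and 510 FPKM, a log2 ratio of -0.17 with p = 0.118 in the authors' deposited table. Rpl3, which reaches towards the site where peptide bonds are made, had 471 and 443 FPKM. Of these 4 genes, Rplp0 alone had the higher value in KO cells, and none of the 4 ratios was further from 0 than that of Rpl41. The other stalk proteins, Rplp1 and Rplp2, have no member row.

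At the low end, 13 standard members (7 small, 6 large) had a mean under 5 FPKM, although each protein is needed once per ribosome. Rpl7 was listed at 0.510 FPKM in WT and 0.315 FPKM in KO cells, Rpl6 at 0.584 and 0.704 FPKM, Rps20 at 1.13 and 1.02 FPKM, Rpl26 at 1.501 and 1.06 FPKM, and Rps14, of the platform of the small subunit, at 1.69 and 1.61 FPKM. The other 8 were Rps10, Rps15a, Rps21, Rps28, Rps3a, Rpl27a, Rpl32 and Rpl36a, which ranged from 1.76 to 3.83 FPKM in WT cells. These are levels of a row, which need not hold all mRNA of its protein.

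For 7 of the 13, another row of the table bears the name of a copy of the same gene. Names and synonyms in RefSeq tie 23 tested rows (22 symbols, 16 of them rows under a LOC, RGD or clone name) to 21 ribosomal proteins. RefSeq itself lists 1218 rat entries named for ribosomal proteins, 903 of them pseudogenes. The copies named here were chosen after their values were seen. Rpl6 stood at 0.584 FPKM in WT cells, and its copy Rpl6-ps1 at 266 FPKM in WT and 265 FPKM in KO cells. Rps15a stood at 2.84 FPKM and its copy LOC691716 (now Rps15a-ps9) at 216 and 188 FPKM. For Rps21 (chr3:175626803-175644908) the gene row stood at 1.83 FPKM (WT) and 1.75 FPKM (KO), and the row of Rps21-ps1 (chr5:159606594-159606996) had 701 and 891 FPKM. The highest copy row, LOC100362987 (now Rps27l3), stood at 1080 FPKM in WT and 1055 FPKM in KO cells. Whether it is a copy of Rps27 or Rps27l was not settled from its name, so it was left out of the counts and sums per protein that follow. With duplicates such as Rps10l1 and Rpl5l1 counted as copies, 17 other proteins had both kinds of row, and the copies had more FPKM in WT cells than the gene in 14. Rps15 was among the exceptions, with 32.9 FPKM, or 5.11% of its sum, in the row of Rps15-ps2.

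**Figure D4:**
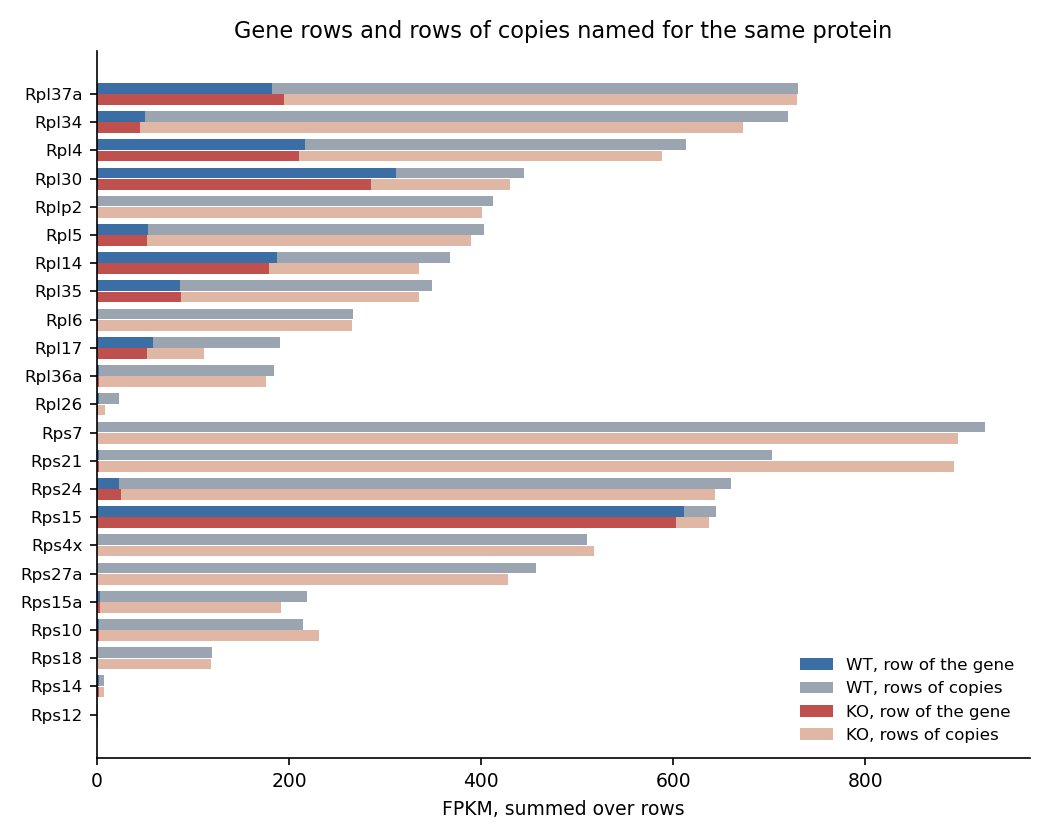
Stacked bars of pooled FPKM (x axis, linear) for each protein with copy rows (y axis), with the gene's own row in dark and its copies in pale colour, WT above KO. Rps27l3 is not drawn. For 14 of the 17 proteins with both kinds of row, the WT bar is mostly pale, as for Rpl6 (0.584 FPKM in the gene row and 266 FPKM in the copy).

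Copy rows also stood in for proteins without a member. Of the 80 standard proteins (33 small, 47 large), 55 are members (18 small, 37 large). Another 25 are not. Of these, 4 have names outside the rule, among them Rpsa and Rack1, and 21 have no tested row under their symbol. Among the 21 are Rps6, the S6 kinase substrate, Rps27a, a ubiquitin fusion, and Rps19 and Rps26, genes of Diamond-Blackfan anaemia. Counting Rpsa and Rack1, 57 had a tested row of their own, 6 had a tested copy row only and 17 had no tested row. Rows of another status were not searched. Of the 6 copy rows that stood alone, 5 were above 100 FPKM in WT cells and that of Rps12 (RGD1561102) was at 0.798 FPKM. That of Rps7 (LOC100362830) stood at 925 FPKM in WT and 897 FPKM in KO cells, Rps4x-ps9 at 511 and 517 FPKM, Rps27a-ps1 at 457 and 428 FPKM, and that of Rplp2 (LOC498555) at 412 and 401 FPKM. The row of Rps27a-ps1 spans 88945 bp, and whether it holds other transcripts was not checked. Which gene the reads came from cannot be told from the table, since spliced mRNA of a parent gene and its intronless copy are nearly identical, and every level in this family that is split between rows is uncertain. Of the rows outside the naming rule, Rpsa, also a laminin receptor, had 147 and 151 FPKM, Rack1, a signalling scaffold on the small subunit, 143 and 141 FPKM in its longer row, and Rpl36al 182 and 174 FPKM.

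Across the 23 copy rows 4 were higher in KO and 19 in WT cells, and 0 had q under 0.05 in the authors' deposited table, against 1.05% of all tested rows. The row of Rps21-ps1 was the 1 of 23 with p under 0.05, against 6.0% of all tested rows, with a log2 ratio of 0.35, p = 0.00205 and q = 0.138 in the authors' deposited table. The difference was in the same direction as that of Rps29 and opposite to that of the low Rps21 row. The most negative copy rows were RGD1560017, named for Rpl17, and LOC365287, named for Rpl26, with loci of 81 and 114 bp. The first had 130 FPKM in WT and 57.0 FPKM in KO cells (log2 ratio -1.18, p = 0.139 in the authors' deposited table). The second had 21.0 and 7.26 FPKM (-1.41, p = 0.248 in the authors' deposited table). A count per protein instead of per symbol, with own and copy rows summed, gave a median log2 ratio of -0.03, with -0.77 for Rpl17 and -1.33 for Rpl26. It also changed the set, since duplicates were merged with their counterparts and Rpsa, Rack1 and 6 proteins with a copy row only came in. The WT median of that set was 143 FPKM for the small subunit, the value of Rack1 itself, and 116 FPKM for the large subunit.

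Position gave a further check of what the rows hold. For 59 members the neighbours in the table were those that RefSeq lists beside the symbol. For the other 4, Rpl30, Rpl35a, Rpl5l1 and Rps13, they were not, and their loci spanned 485, 308, 329 and 529 bp. Rpl30 stood at 311 FPKM in WT and 285 FPKM in KO cells, Rps13 at 279 and 248 FPKM, Rpl5l1 at 350 and 338 FPKM and Rpl35a at 6.80 and 6.77 FPKM. FPKM is unstable for loci this short. The members lay on 19 chromosomes, with 10 on chromosome 1 and 8 on chromosome 10.

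The largest increases and decreases were small or came from low rows. Rps29, a zinc-binding protein of the small subunit (chr6:91453750-91456705, rn6), had 70.2 FPKM in WT and 84.6 FPKM in KO cells, a log2 ratio of 0.27 with p = 0.0147 and q = 0.508 in the authors' deposited table. After it came Rpl27a (1.996 and 2.51 FPKM, log2 ratio 0.23), Rps3a (1.86 and 2.32 FPKM, 0.22), Rpl12 at the base of the stalk (31.0 and 34.6 FPKM, 0.15) and Rpl30l1 (128 and 139 FPKM, 0.12). A shorter second row of Rps3a went the other way, with 9.81 FPKM in WT and 2.24 FPKM in KO cells (p = 0.145 in the authors' deposited table). The rank of Rps3a therefore holds for its longest row only. At the other end stood Rpl22l2 (chr3:122285246-122285663, rn6), with 39.8 FPKM in WT and 28.9 FPKM in KO cells, a log2 ratio of -0.45 with p = 0.0113 and q = 0.426 in the authors' deposited table. Its locus spans 417 bp, and whether it is a copy of Rpl22l1 or Rpl22 was not settled from its name. Rpl26 and Rpl7, both under 2 FPKM, followed with -0.28 and -0.20. The last of these 5 were Rpl22l1 and Rps27l, both with -0.19.

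The duplicates were set beside their counterparts, since a cell can in principle exchange one for the other in the ribosome. Rpl22l1 had 155 FPKM in WT and 135 FPKM in KO cells (p = 0.109, q = 0.957 in the authors' deposited table), and Rpl22 had 43.1 and 44.7 FPKM. Rps27l, known as a target of p53, had 71.8 and 62.8 FPKM (p = 0.0824, q = 0.938 in the authors' deposited table), and Rps27 had 48.0 and 46.3 FPKM. The row of Rps27l3, whose parent is unsettled, was higher than both, so the levels of this pair are uncertain. In both pairs the duplicate had the higher level in both groups, and in both the duplicate had the more negative ratio. Rps10l1 had 212 and 228 FPKM and Rps10 2.14 and 2.19 FPKM, Rps18l1 had 120 and 119 FPKM with no tested row for Rps18, and Rpl5l1 stood at 350 FPKM in WT cells against 53.2 FPKM for Rpl5. Rpl30l1 had 128 FPKM in WT cells, below the 311 FPKM of the row named Rpl30. Rpl7l1, a protein of large subunit assembly, had 48.4 and 42.6 FPKM, and Rpl7 was under 1 FPKM in both groups. The row of Rpl7l1 spans 308365 bp, and whether it holds transcripts of this gene alone was not checked. Over the 8 duplicates 2 were higher in KO and 6 in WT cells, with a median log2 ratio of -0.12.

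Some ribosomal proteins act outside the ribosome. Free Rpl5, Rpl11 and Rpl23 can bind Mdm2, the ligase that marks p53 for breakdown. Rpl5 had 53.2 FPKM in WT and 51.5 FPKM in KO cells, Rpl11 65.9 and 66.5 FPKM, and Rpl23 289 and 270 FPKM. All 3 differed by less than 1.1-fold. In the list of ribosome surveillance and p53 genes, 3 of 12 were higher in KO and 9 in WT cells, with a median log2 ratio of -0.05. None of the 12 had q under 0.05 in the authors' deposited table, against 1.33% of all rows from a mean of 1 FPKM, and 2 had p under 0.05, against 6.6%. Mdm2 had 31.9 and 25.2 FPKM (p = 0.00335, q = 0.198 in the authors' deposited table), and Cdkn1a, an inhibitor of the cell cycle that p53 induces, had 57.9 and 48.1 FPKM (p = 0.0207, q = 0.608 in the authors' deposited table).

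The genes that build the ribosome were read as the ribosomal proteins' companions, in lists drawn up from general knowledge of the pathway. The lists were written with earlier results of these data known, so the shares below may not be independent of those results. Of 249 genes in 10 lists, 225 had a tested row whose mean reached 1 FPKM, and 0 of 225 had q under 0.05 in the authors' deposited table, where 1.33% of all rows at that level did. In 4 lists for transcription and processing of ribosomal RNA and for assembly, values were nearly all lower in KO cells: 18 of 19 genes of RNA polymerase I and its factors (median log2 ratio -0.16), 11 of 11 of the small nucleolar particles that modify ribosomal RNA (-0.19), 45 of 50 for small subunit assembly (-0.15) and 42 of 49 for large subunit assembly (-0.17). Together 116 of 129 (89.9%) were lower, against 48.9% of all rows at that level, and 117 after centring on the median of all rows. The median of the 129 was -0.16, and -0.31 after scaling to the same total FPKM. That scaling also moved the median of all rows by -0.14. Relative to all rows, the 129 stood at -0.17 before scaling and at -0.18 after it. Of the 129, 15 (11.6%) had p under 0.05 in the authors' deposited table, all lower in KO cells, against 6.6% of all rows at that level and 3.22% that were also lower. From a mean of 10 FPKM upwards, 103 of 114 assembly genes were lower (90.4%), against 31 of 47 ribosomal protein members (66.0%) and 54.0% of all rows. The pooling of these 4 lists was not foreseen in the design, and lower values were not particular to them. Of the chaperones and importers of ribosomal proteins 14 of 15 were lower, and of the genes taken as having TOP mRNAs 17 of 19. The shares were 19 of 29 for other initiation and release factors, 14 of 22 for TOP signalling and 9 of 12 for surveillance genes.

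**Figure D5:**
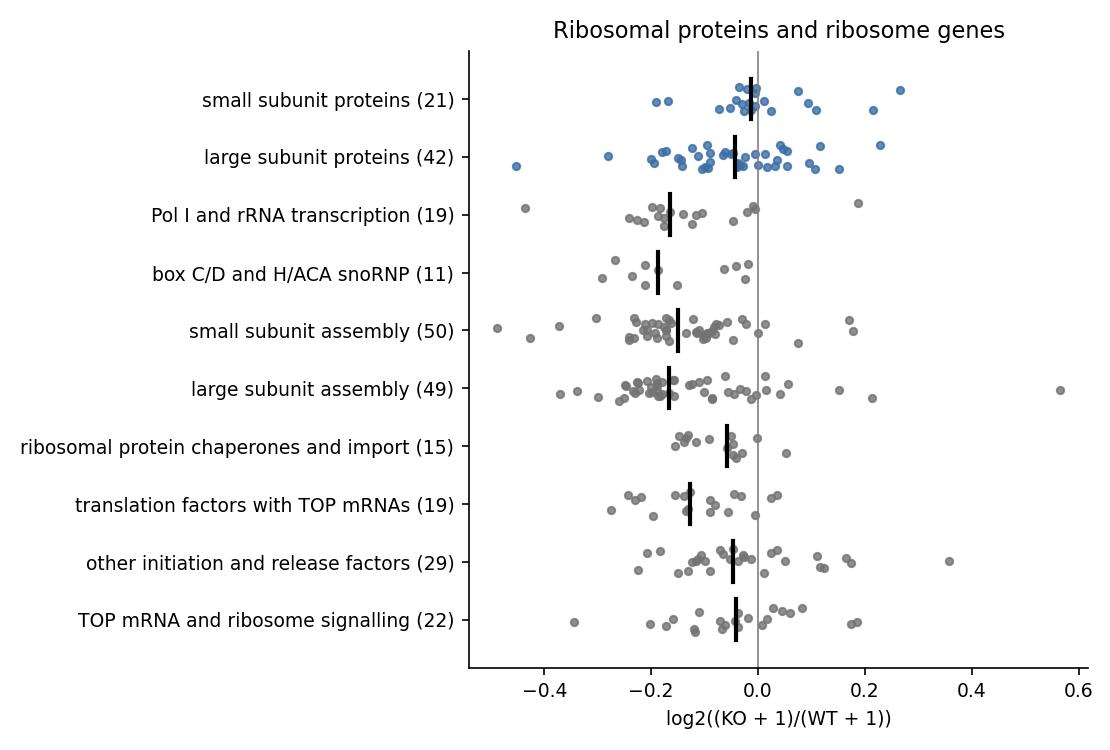
Log2((KO + 1)/(WT + 1)) of pooled FPKM (x axis) for the members of each subunit and for companion lists, 1 point per gene (vertical scatter has no meaning), with a bar at each median. The lists of ribosomal RNA transcription and assembly have medians from -0.15 to -0.19, and the small and large subunit proteins -0.01 and -0.04.

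The 2 genes of smallest p in each of these lists show the size of the differences. Rsl24d1, a placeholder on the nascent large subunit, had 17.5 FPKM in WT and 13.4 FPKM in KO cells (p = 0.00065, q = 0.0587 in the authors' deposited table), the smallest q of the 4 lists. Las1l, which takes part in cutting the spacer of pre-rRNA, had 37.1 and 31.1 FPKM (p = 0.0316, q = 0.735 in the authors' deposited table). In small subunit assembly, Utp14a had 29.9 and 22.9 FPKM (p = 0.0032, q = 0.192 in the authors' deposited table) and Nop14 27.6 and 22.2 FPKM (p = 0.006, q = 0.292 in the authors' deposited table). Nop58, a core protein of box C/D particles, had 108 and 88.3 FPKM (p = 0.007, q = 0.319 in the authors' deposited table), and Nolc1 100.4 and 86.5 FPKM. Polr1a, the largest subunit of RNA polymerase I, had 16.3 and 14.2 FPKM, and Polr1e 16.2 and 13.9 FPKM. An exception in sign, named after its values were seen, was Eif6, which keeps the large subunit from joining too early, with 372 and 413 FPKM (p = 0.162 in the authors' deposited table). None of these passed the q threshold.

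The remaining lists, closer to translation itself, had medians from -0.13 to -0.04. The list of translation factors and other genes taken as having TOP mRNAs had 2 of 19 genes higher and 17 lower, with a median log2 ratio of -0.13. Their transcript starts were not examined. Naca, Btf3 and Nap1l1 of this list also count among the chaperones and importers, and Npm1 in large subunit assembly. Tpt1 had 53.02 and 44.6 FPKM (p = 0.023, q = 0.634 in the authors' deposited table) and Eif4a1 was listed low, at 1.37 and 0.961 FPKM. Other initiation and release factors had 10 higher and 19 lower (median -0.05), with Eif2b3 at 40.7 and 34.7 FPKM and Eif3m at 137 and 123 FPKM. Chaperones and importers of ribosomal proteins had 1 higher and 14 lower (-0.06), with Ipo5 at 168 and 151 FPKM and Nap1l1 at 335 and 304 FPKM. The signalling genes of the TOP pathway had 8 higher and 14 lower (-0.04). Among them Eif4ebp1, the translation repressor that mTOR phosphorylates, had 53.4 and 41.9 FPKM (p = 0.0045, q = 0.24 in the authors' deposited table), and Cnbp, which binds TOP mRNAs, 384 and 333 FPKM. In each of these 4 lists 0 genes had q under 0.05 in the authors' deposited table, and p under 0.05 was reached by Tpt1 and Eif4ebp1 alone.

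The labelled cell type was checked against its markers. Of 6 epithelial markers 5 had a tested row, with Krt8 at 204 FPKM in WT and 241 FPKM in KO cells, Krt18 at 103 and 121 FPKM, Cdh1 at 152 and 144 FPKM, Epcam at 501 and 419 FPKM and Cldn4 at 213 and 228 FPKM. Of the markers of other cells, 1 of 6 for fibroblasts (Col1a1, 1.43 and 1.17 FPKM), 1 of 6 for leukocytes (Csf1r, 0.791 and 0.2004 FPKM, q = 0.0187 in the authors' deposited table), 1 of 4 for muscle (Myh11, 1.204 and 2.80 FPKM), 0 of 5 for endothelium and 0 of 4 for nerve had a tested row. Lack of a tested row does not show that a gene is silent. Krt19 and 17 standard ribosomal proteins had none either, and rows of another status were not searched.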

How the data were processed

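RNA-seq of 3 WT and 3 miR-203 KO samples was read from the authors' gene table. Reads had been processed with TopHat (listed as 0.9), Cufflinks 2.2.1 and Cuffdiff 2.2.1.3 on rn6, per the submitters' processing notes. The annotation used is not given in the sources read here. Per the file headers, the authors deposited 1 FPKM value per group, the log2 fold, a test statistic (a score), the p-value and the q-value. Cuffdiff shares reads between near-identical transcripts, so genes with copies are uncertain one by one. The design had foreseen tests on values per sample. With pooled values none was run, and a gene was called by the authors' q, at a threshold of 0.05. Benjamini-Hochberg values recomputed from the deposited p-values differed from the deposited q-values by at most 5.12e-07.

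Log2 ratios used a pseudocount of 1 FPKM, which understates changes of low genes. For equal locus lengths the row of higher mean was taken. Companion genes needed a mean of 1 FPKM. Loci are given as in the authors' table (rn6), and promoters, miRNAs, copy names and neighbours come from RefSeq (GRCr8). A row's place was compared through its 5 neighbours on each side, of which 2 had to be among the 15 RefSeq neighbours on each side. Named genes are the 5 highest and 5 lowest members, the 5 largest increases and decreases, stalk proteins, duplicates with counterparts, Mdm2 binders, well-known disease and signalling genes, and the 2 companion genes of smallest p per list. Some genes that this rule names are not reported here. The members and lists were chosen with earlier results of these data known. Scripts (Python 3.11.15, pandas 2.3.3, NumPy 2.4.6, matplotlib 3.10.9) were tested on simulated data. Alternatives were pseudocounts, row choice, level filters, duplicates, scaling, locus length and q thresholds, and, added after seeing the data, the authors' fold column, sums with copies and companion lists without a level filter.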

Additional observations from a re-analysis of the deposited data

How the results depend on the processing

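The count of 0 members with q under 0.05 was the same at q under 0.01, with q recomputed over rows reaching a mean of 5 FPKM, and with the row of highest mean per symbol. Scaling both columns to the same total FPKM (928381 in WT, 1039930 in KO cells) moved the median log2 ratio to -0.17 for all members, -0.15 for the small and -0.20 for the large subunit, and moved the median of all rows by -0.14, so that relative to all rows the members stood at -0.04 after scaling and at -0.03 before. Under the other 12 alternatives these medians ranged from -0.04 to -0.03, from -0.02 to -0.00 and from -0.05 to -0.04. The difference between the subunits ranged from 0.02 to 0.05 over 13 alternatives. The median level in WT cells of the small subunit was 121 FPKM among members whose mean reached 10 FPKM, and it was 143 FPKM, with 116 FPKM for the large subunit, in a set counted per protein. That alternative, chosen after seeing the data, both summed copies and changed the set (duplicates merged, Rpsa, Rack1 and 6 proteins with a copy row only added), and 143 FPKM is the value of Rack1. No paired analysis was possible because no value per sample was at hand, only 1 pooled value per group, and for the same reason leaving out single samples was not run. Depth is unknown, and precision is limited by pooled values, short or very long loci and reads shared between copies.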
